A study of Mus musculus with 4 samples.

Results

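A set of 34 genes of cholesterol synthesis, cholesterol efflux and lipid droplet storage was followed through the immune cells of the mouse brain after stroke. The genes were taken by symbol, with earlier results of these data known, from the 31053 genes listed in the files, and all 34 were found. By role they are 14 enzymes of sterol synthesis, 3 regulators, 4 genes of fatty acid synthesis, 6 of efflux and lipoprotein handling, 3 of storage, 3 of lysosomal cholesterol release, and Ch25h, which makes a hydroxylated form of cholesterol.

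The cells came from C57/BL6 mice after tMCAO, a temporary blockage of the middle cerebral artery that leaves an ischemic hemisphere. In 2 libraries the hemisphere was taken 14 days after the blockage and in 2 libraries 5 days after it. No further allele or agent is named in the labels, every library comes from an injured hemisphere, and no uninjured brain was analysed here. Sorting kept the cells with much CD45, found on the surface of all white blood cells, which were then lysed in droplets and read with single-cell RNA sequencing, which counts molecules (UMIs) at the 3' end of each transcript. Microglia usually carry less CD45 than blood-borne cells, so the microglia here are those that passed a gate on high CD45. Whether a library holds 1 mouse or several is not stated, so p-values measure the spread between libraries, which may be technical.

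Myelin debris loads phagocytes with cholesterol after a brain injury. A cell that takes it in releases it in the lysosome, then either exports it through transporters such as Abca1 and Abcg1 onto lipoproteins that carry Apoe, or esterifies it and stores it in droplets coated by Plin2. Cells low in sterol switch on the synthesis enzymes through the transcription factor encoded by Srebf2, and cells rich in it restrain that factor through Insig1 and switch on the transporters through liver X receptors, of which Nr1h3 encodes one.

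Summed over all cells, day 14 replicates 1 and 2 gave 9288054 and 10759904 UMIs, and day 5 replicates 1 and 2 gave 10730791 and 13610119 UMIs. Of 10925 barcodes, 65 were found in more than 1 library. After filters 10841 cells stayed, 8742 fell into 1 marker-gated class, 1018 carried the markers of more than 1 class and were left out, and 1081 met no gate. The gates used no gene of the set, and in the 7 classes compared by day 86.9 to 99.0% of cells lay in clusters led by the same class. Border-associated macrophages and other C1q-positive cells spread more widely, with 97 of 153 and 30 of 313 cells in the cluster led by their own class. Phagocytes, here microglia, border-associated macrophages, monocytes or macrophages and other C1q-positive cells, numbered 4744, and lymphocytes (T, NK and B cells) 2445. Class sizes moved with time: microglia numbered 196 and 105 on day 14, against 798 and 1398 on day 5, and T cells 789 and 437 on day 14, against 54 and 56 on day 5. The day 5 files name their software version in their headers and the day 14 files do not, so the layout of the files and the day cannot be told apart. The lowest count of a deposited cell was 1180 and 1317 UMIs on day 14, against 500 and 505 UMIs on day 5. Cells over 10% mitochondrial UMIs numbered 3 and 5 on day 14, against 36 and 37 on day 5. These differences between the files also cannot be told apart from the day.

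Promoter sequences are shown because the synthesis genes share a short motif that most efflux genes lack. RefSeq windows (GRCm38.p6) were found for 27 of the 34 genes, and not for Fdps, Fdft1, Sqle, Scd1, Scd2, Abcg1 and Npc1. The pentamer CCAAT, read on either strand in the 250 bases before the transcript start, lay in 11 of 11 synthesis genes, 3 of 3 regulators, 3 of 3 storage genes and 2 of 2 lysosomal genes. It lay in 1 of 5 efflux genes (Pltp), 1 of 2 fatty acid genes (Fasn) and 0 of 1 oxysterol genes, against 37.5% of all 27025 genes. The longer sterol element TCACNCCAC lay in 1 of 27 genes (Hmgcs1), against 1.22% of all genes, and a pair of AGGTCA in the same direction with NNNN between them, the repeat that liver X receptors bind, in 0 of 27, against 0.0148%. A match describes these letters only. Capitals mark CCAAT, or ATTGG where it lies on the other strand. The windows of 3 genes with calls in the results, with that of the efflux gene Abca1 for contrast, are at chr5:4104698-4104947 on the minus strand (Cyp51), chr8:64733579-64733828 on the minus strand (Msmo1), chr5:28071162-28071411 on the plus strand (Insig1) and chr4:53159896-53160145 on the minus strand (Abca1).
Cyp51: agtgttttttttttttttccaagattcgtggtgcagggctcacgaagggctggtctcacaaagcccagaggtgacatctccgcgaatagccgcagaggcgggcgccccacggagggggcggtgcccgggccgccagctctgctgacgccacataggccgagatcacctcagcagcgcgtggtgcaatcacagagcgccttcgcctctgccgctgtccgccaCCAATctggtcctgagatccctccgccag
Msmo1: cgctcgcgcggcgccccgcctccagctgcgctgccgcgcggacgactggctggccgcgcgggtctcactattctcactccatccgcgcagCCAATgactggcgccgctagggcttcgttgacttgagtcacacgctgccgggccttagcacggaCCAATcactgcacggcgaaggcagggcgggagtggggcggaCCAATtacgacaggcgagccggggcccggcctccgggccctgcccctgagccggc
Insig1: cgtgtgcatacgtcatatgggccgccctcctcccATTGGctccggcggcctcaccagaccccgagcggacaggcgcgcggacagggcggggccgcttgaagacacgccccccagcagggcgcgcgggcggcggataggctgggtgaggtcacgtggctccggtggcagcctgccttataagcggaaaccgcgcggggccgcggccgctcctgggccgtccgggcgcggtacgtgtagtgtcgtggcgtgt
Abca1: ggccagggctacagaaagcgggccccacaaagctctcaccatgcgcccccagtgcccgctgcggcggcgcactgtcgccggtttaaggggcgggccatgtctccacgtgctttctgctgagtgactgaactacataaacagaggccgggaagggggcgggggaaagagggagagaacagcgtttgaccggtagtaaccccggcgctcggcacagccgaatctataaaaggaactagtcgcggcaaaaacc

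Phagocytes and lymphocytes of the same 4 libraries were compared first. Efflux, storage and lysosomal genes were higher in phagocytes, while the synthesis enzymes had like summed levels in both lineages. All 6 efflux genes, all 3 storage genes, all 3 lysosomal genes and Ch25h passed the test upward (edgeR's quasi-likelihood test with Benjamini-Hochberg adjustment over all genes, the library as a block). Of 12 synthesis enzymes that could be tested, 1 was higher (Msmo1) and 1 lower (Sc5d). In all, 19 of 32 genes tested passed, 15 upward and 4 downward, beside 48.6% of all genes (25.9% upward, 22.7% downward). Their median log2 fold change was 0.34, against −0.02 over all genes. Levels are UMIs per 1000000 UMIs of the summed class (CPM, on TMM-scaled totals). A 3' count is 1 per captured molecule and is not divided by transcript length. In such a sum, fewer cells that carry a transcript and less of it per cell cannot be told apart.

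In the values of this comparison the 4 libraries stand in the order day 14 replicates 1 and 2, then day 5 replicates 1 and 2. The droplet coat gene Plin2 had 289, 458, 895 and 631 CPM in phagocytes, against 57.1, 75.0, 127 and 167 CPM in lymphocytes (log2 fold change 2.49, SE 0.16, adjusted p = 1.74e-06). Soat1, which esterifies cholesterol for storage, had 89.5, 119, 97.7 and 81.3 CPM in phagocytes, against 28.7, 26.3, 32.3 and 29.0 CPM in lymphocytes (1.84, SE 0.16, adjusted p = 1.14e-05). Plin3, another droplet coat gene, had 35.1, 40.9, 45.5 and 44.5 CPM in phagocytes, against 23.4, 23.0, 32.3 and 11.1 CPM in lymphocytes (0.88, SE 0.21, adjusted p = 0.00595). For each storage gene the lowest phagocyte sum lay above the highest lymphocyte sum, by the smallest margin for Plin3.

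Among the efflux genes, Abca1, the transporter that loads lipid-poor apolipoproteins, had 118, 119.8, 85.9 and 98.3 CPM in phagocytes, against 43.2, 28.2, 6.05 and 22.3 CPM in lymphocytes (2.06, SE 0.24, adjusted p = 8.31e-05). Pltp, which moves phospholipid between lipoproteins, had 102, 123, 113 and 84.4 CPM in phagocytes, against 14.2, 15.4, 16.1 and 8.91 CPM in lymphocytes (2.99, SE 0.15, adjusted p = 4.67e-07). Neither gene overlapped between the lineages. Nr1h3 had 20.3, 30.3, 17 and 10.9 CPM in phagocytes, against 2.07, 2.56, 12.1 and 6.68 CPM in lymphocytes (2.64, SE 0.47, adjusted p = 0.00133), with 1 overlap, as day 5 replicate 1 lymphocytes lay above day 5 replicate 2 phagocytes. Abcg1, the transporter that loads mature lipoproteins, had 136, 129, 75.6 and 68.6 CPM in phagocytes, against 82.0, 65.8, 32.3 and 31.2 CPM in lymphocytes (1.02, SE 0.14, adjusted p = 0.000272). Its lineages overlapped between days, although phagocytes were higher within each of the 4 libraries, and without the library block its log2 fold change was 0.85 with adjusted p = 0.0593.

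Lysosomal release followed the same direction. Npc2, the soluble cholesterol carrier, had 2930.3, 3211, 1828 and 1747 CPM in phagocytes, against 510.5, 594, 428 and 515 CPM in lymphocytes (2.28, SE 0.15, adjusted p = 1.74e-06). Lipa, the acid lipase that frees cholesterol from its esters, had 126, 142, 188 and 147 CPM in phagocytes, against 24.9, 24.1, 68.6 and 33.4 CPM in lymphocytes (2.22, SE 0.18, adjusted p = 8.64e-06). Npc1, the membrane protein that takes cholesterol over from Npc2, had 46.3, 43.9, 53.7 and 43.8 CPM in phagocytes, against 17.5, 21.9, 22.2 and 15.6 CPM in lymphocytes (1.31, SE 0.16, adjusted p = 0.00012). None of the 3 overlapped between the lineages.

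Droplets also hold free RNA, which gives counts in cells that do not make a transcript. The complement genes C1qa, C1qb and C1qc, which lymphocytes should lack, stood in lymphocytes at 4.47%, 5.02% and 4.61% of their phagocyte level. Ch25h had 35.1, 19.5, 40.4 and 40 CPM in phagocytes, against 1.78, 0.366, 4.04 and 2.23 CPM in lymphocytes (4.39, SE 0.31, adjusted p = 3.09e-06). Apoc2, a cofactor of lipoprotein lipase, had 45.2, 75.5, 43.4 and 34.2 CPM in phagocytes, against 2.07, 4.39, 2.02 and 6.68 CPM in lymphocytes (4.09, SE 0.27, adjusted p = 1.98e-06). Apoe had 44734, 34578, 44216 and 39711 CPM in phagocytes, against 2935, 2989, 3192 and 3941 CPM in lymphocytes (3.71, SE 0.14, adjusted p = 1.96e-07). These 3 stood in lymphocytes at 6.23%, 7.64% and 8.0% of the phagocyte level, near the complement genes, and the part of free RNA in the lymphocyte values was not tested. Plin2 (18.8%), Npc2 (21.1%), Abca1 (23.6%), Soat1 (30.0%) and Npc1 (41.1%) lay further above the complement genes. The complement genes were also gate markers, while no gene of the set was. Lymphocytes with at least 50 C1q UMIs per 10000 were left out, and at least 100 per 10000 defined C1q-positive phagocytes. These gates lower the complement share by design, so a gap between it and the shares of the set is partly fixed in advance.

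**Figure D1:**
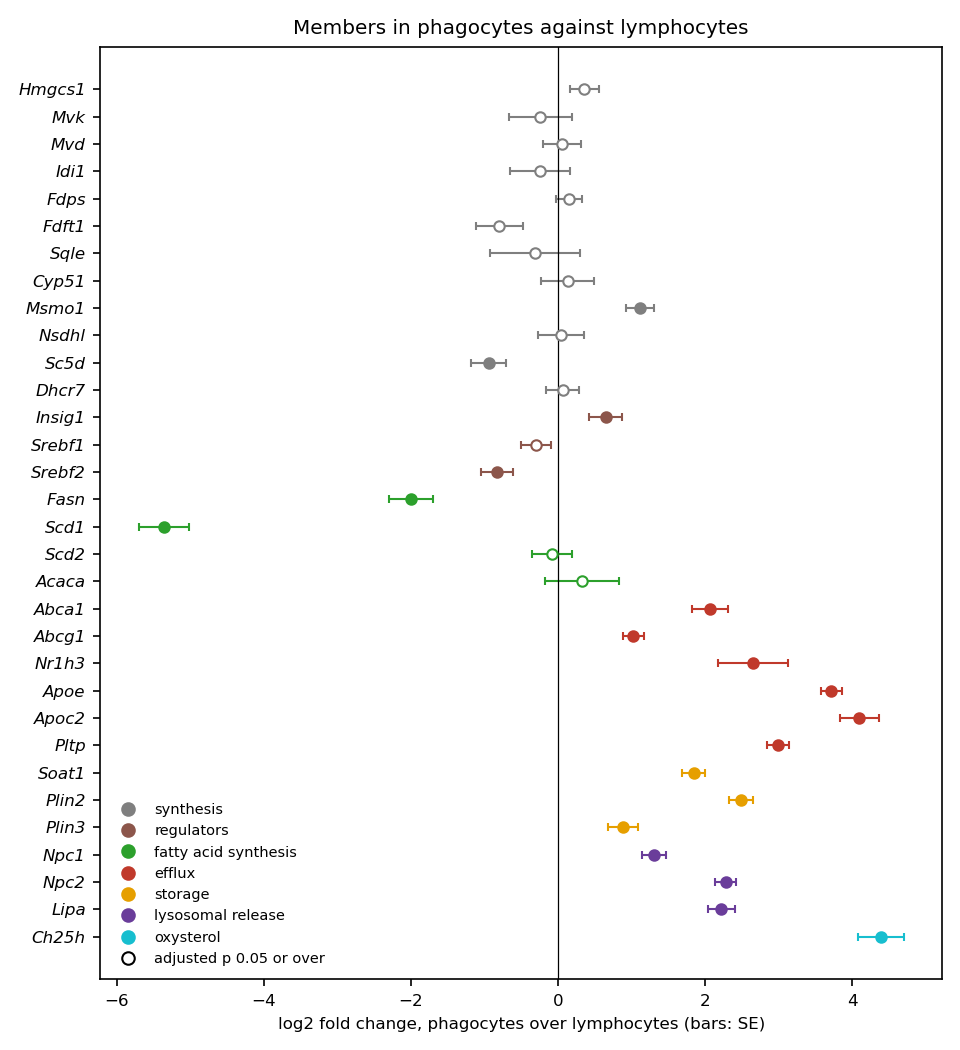
Log2 fold change of phagocytes over lymphocytes for the 32 genes that could be tested, coloured by role, with bars of 1 SE; open points did not pass the adjusted threshold of 0.05. The 9 efflux and storage genes lie right of 0, while 12 synthesis genes centre on a median of 0.05.

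The genes that stood lower in phagocytes belong to fatty acid and sterol supply. Scd1, a desaturase that makes monounsaturated fatty acids, had 1.02, 0.309, 0.374 and 0.435 CPM in phagocytes, against 42.0, 24.5, 10.1 and 22.3 CPM in lymphocytes (−5.36, SE 0.34, adjusted p = 1.7e-06). Fasn, the fatty acid synthase, had 4.07, 4.33, 3.37 and 3.33 CPM in phagocytes, against 20.7, 12.1, 20.2 and 13.4 CPM in lymphocytes (−2.0, SE 0.30, adjusted p = 0.000426). Neither overlapped between the lineages, and the direction was the reverse of the storage genes. The lymphocyte level of Scd1 came mostly from B cells, which had 378 and 350.3 CPM on day 14 and 65.6 and 74.9 CPM on day 5, while T and NK cells had at most 8.68 CPM in any library. Srebf2 had 19.3, 18.6, 18.7 and 18.7 CPM in phagocytes, against 35.5, 24.5, 30.3 and 60.2 CPM in lymphocytes (−0.83, SE 0.22, adjusted p = 0.011), but −0.39 with adjusted p = 0.143 when cells were classed by clusters. Sc5d, a late synthesis enzyme, had 9.15, 5.88, 9.17 and 12 CPM in phagocytes, against 18.9, 14.6, 12.1 and 24.5 CPM in lymphocytes (−0.95, SE 0.23, adjusted p = 0.008), and without day 14 replicate 1 its adjusted p was 0.0525.

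In the other direction, Msmo1, which removes methyl groups from the sterol ring, had 22.4, 22.0, 27.9 and 32.3 CPM in phagocytes, against 10.1, 9.51, 16.1 and 17.8 CPM in lymphocytes (1.11, SE 0.19, adjusted p = 0.000924), with no overlap. Insig1 had 28.0, 15.8, 18.5 and 21.7 CPM in phagocytes, against 15.4, 8.78, 14.1 and 24.5 CPM in lymphocytes (0.65, SE 0.22, adjusted p = 0.0375). Its lineages overlapped, and the call was lost without day 5 replicate 1 (0.66, adjusted p = 0.0731), day 14 replicate 1 (0.47, adjusted p = 0.271) or day 14 replicate 2 (0.53, adjusted p = 0.161).

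Summed over roles, the 14 synthesis genes reached 131 and 115 CPM in day 14 phagocytes, against 162 and 176 CPM in day 5 phagocytes. The same sum over lymphocytes was 125 and 111 CPM on day 14, against 157 and 207 CPM on day 5. The 2 lineages thus averaged 146 ± 27.7 CPM and 150 ± 42.6 CPM (SD, n = 4 libraries each), phagocytes first, and their ranges overlapped. The 9 efflux and storage genes averaged 41899 ± 4730 CPM in phagocytes and 3524 ± 481 CPM in lymphocytes. Apoe made up most of that sum, and without it the other 8 genes averaged 1089 ± 221 CPM in phagocytes and 259 ± 17.8 CPM in lymphocytes, again without overlap. The 4 fatty acid genes averaged 33.9 ± 12.3 CPM in phagocytes and 71.6 ± 31.4 CPM in lymphocytes, the lymphocyte sum including the Scd1 of B cells. No test was run on these sums.

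Among 24 testable pathway genes outside the set, 10 were higher in phagocytes and 5 lower, beside 48.6% of all genes (25.9% higher, 22.7% lower). Lpl, the lipoprotein lipase, was higher by 3.70 and Apoc1, a small apolipoprotein, by 3.49. Nceh1, which hydrolyses stored cholesterol esters, was higher by 1.99. The droplet genes G0s2 (1.95), Abhd5 (1.36) and Dgat2 (1.36) and the genes Fads1 (1.74), Rxra (0.92), Lpcat3 (0.92) and Mylip (0.91) were also higher. Elovl6, a fatty acid elongase, was lower by −2.24, and Dgat1 (−1.45), Stard4 (−1.45), Lbr (−1.24) and Hilpda (−0.76) were lower too. Of the 15, the calls of Rxra, Lpcat3, Dgat2, Fads1, Hilpda and Stard4 were lost when 1 library or another was left out.

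**Figure D2:**
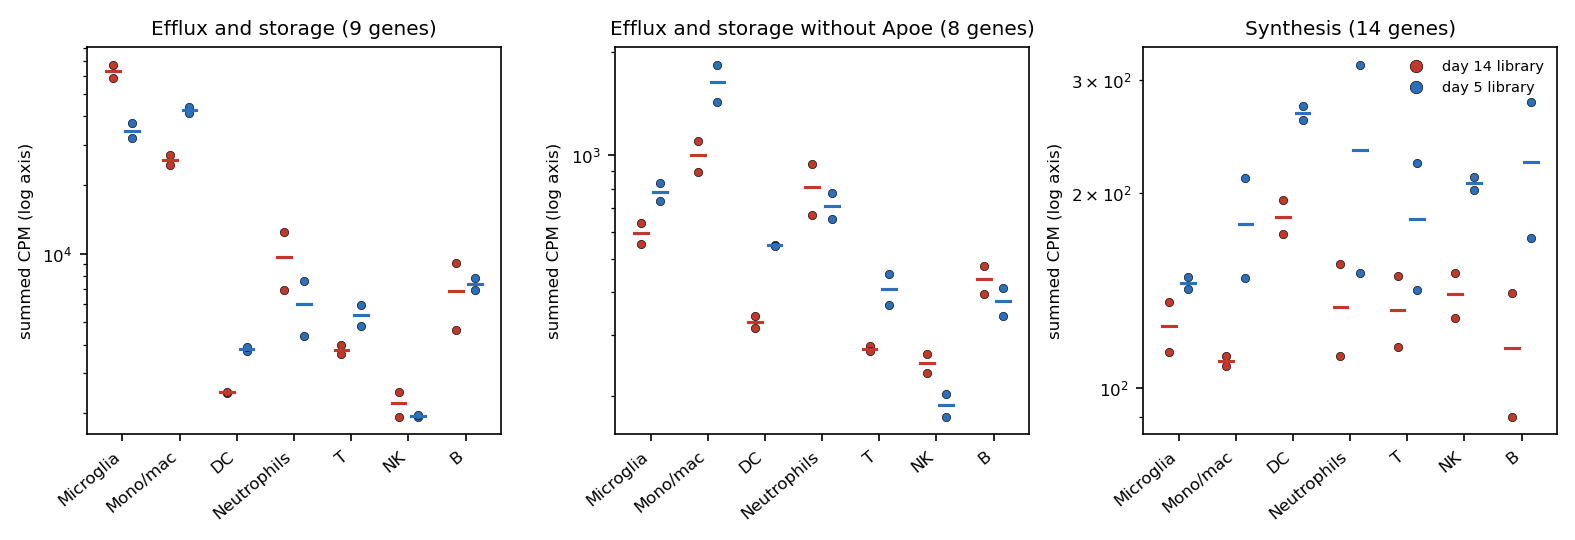
Summed CPM (log axis) by class for efflux and storage (9 genes), the same without Apoe (8 genes) and synthesis (14 genes); points are libraries and lines their means, day 14 left of day 5. In the 7 classes shown the synthesis sum lies between 90.2 and 317 CPM, while the efflux and storage sum lies between 24362 and 67367 CPM in microglia and in monocytes or macrophages and between 1935 and 9075 CPM in T, NK and B cells.

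The day 14 and day 5 libraries were then compared within each class. In microglia, the droplet coat gene Plin2 was lower on day 14, and the efflux genes Apoe, Abca1 and Abcg1 and the lysosomal carrier Npc2 were higher. Of 26 genes tested, 7 passed, 6 upward and 1 downward, beside 4.33% of all genes (3.07% upward, 1.25% downward). Their median log2 fold change was 0.17, against −0.005 over all genes.

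Plin2 had 163 and 196 CPM in day 14 microglia, against 515 and 427 CPM in day 5 microglia (−1.38, SE 0.16, adjusted p = 2.28e-05). Both day 14 libraries lay below both day 5 libraries, and the call held without any 1 library. Apoe had 66814 and 58165 CPM on day 14, against 36436 and 31246 CPM on day 5 (0.90, SE 0.10, adjusted p = 4.91e-06). Npc2 had 2647 and 2835 CPM on day 14, against 1700 and 1592 CPM on day 5 (0.75, SE 0.12, adjusted p = 0.000445). For both genes the days did not overlap and no call was lost by leaving out a library.

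The other 4 calls in microglia were weaker. Abca1 had 143 and 164 CPM on day 14, against 92.1 and 97.5 CPM on day 5 (0.70, SE 0.16, adjusted p = 0.0137), and its call was lost without day 5 replicate 1 (0.66, adjusted p = 0.0845) or day 14 replicate 2 (0.60, adjusted p = 0.0626). Abcg1 had 113 and 107 CPM on day 14, against 68.7 and 60.0 CPM on day 5 (0.81, SE 0.18, adjusted p = 0.00983), and its call was lost without day 5 replicate 2 (0.71, adjusted p = 0.0634) or day 14 replicate 1 (0.75, adjusted p = 0.0656). Both transporters stood higher in each day 14 library than in either day 5 library. Ch25h had 84.5 and 107 CPM on day 14, against 64.9 and 53.0 CPM on day 5 (0.71, SE 0.20, adjusted p = 0.0483). That call was lost without day 5 replicate 2 (0.56, adjusted p = 0.247) or day 14 replicate 2 (0.54, adjusted p = 0.224), and among microglia low in activation markers its log2 fold change was 0.27. Acaca, the first enzyme of fatty acid synthesis, rested on few molecules: 8 and 6 UMIs on day 14, against 6 and 9 UMIs on day 5 from far more cells (2.63, SE 0.57, adjusted p = 0.00919). Its call did not hold in any of the fits that leave out 1 library. In all, 5 calls at most were left when 1 library was dropped, and 4 when that library was day 5 replicate 2 or day 14 replicate 2.

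None of 9 synthesis enzymes tested passed in microglia by edgeR or DESeq2, and 0 had an unadjusted p under 0.05 by edgeR. Of the 9 values 7 were negative and 2 positive. The sum over all 14 was 136 and 113 CPM on day 14, against 149 and 142 CPM on day 5. The efflux and storage sum was 67367 and 58800 CPM on day 14, against 37268 and 31980 CPM on day 5, and Apoe set its direction: without Apoe it was 553 and 635 CPM on day 14, against 831 and 734 CPM on day 5. Among 21 pathway genes tested, Apoc1 had 1022 and 877 CPM on day 14, against 239.8 and 147 CPM on day 5 (2.32, SE 0.19, adjusted p = 1.3e-07). Lpl had 448 and 447 CPM on day 14, against 172 and 136 CPM on day 5 (1.56, SE 0.15, adjusted p = 1.84e-06). Both secreted lipoprotein genes thus stood apart by day with no overlap. G0s2, an inhibitor of droplet lipolysis, was lower by −2.61 (adjusted p = 0.00208). Lpcat3, which remodels membrane phospholipid, was lower by −0.85 (adjusted p = 0.0233), a call lost without day 5 replicate 2 (−0.78, adjusted p = 0.0553) or day 14 replicate 2 (−0.65, adjusted p = 0.126).

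**Figure D3:**
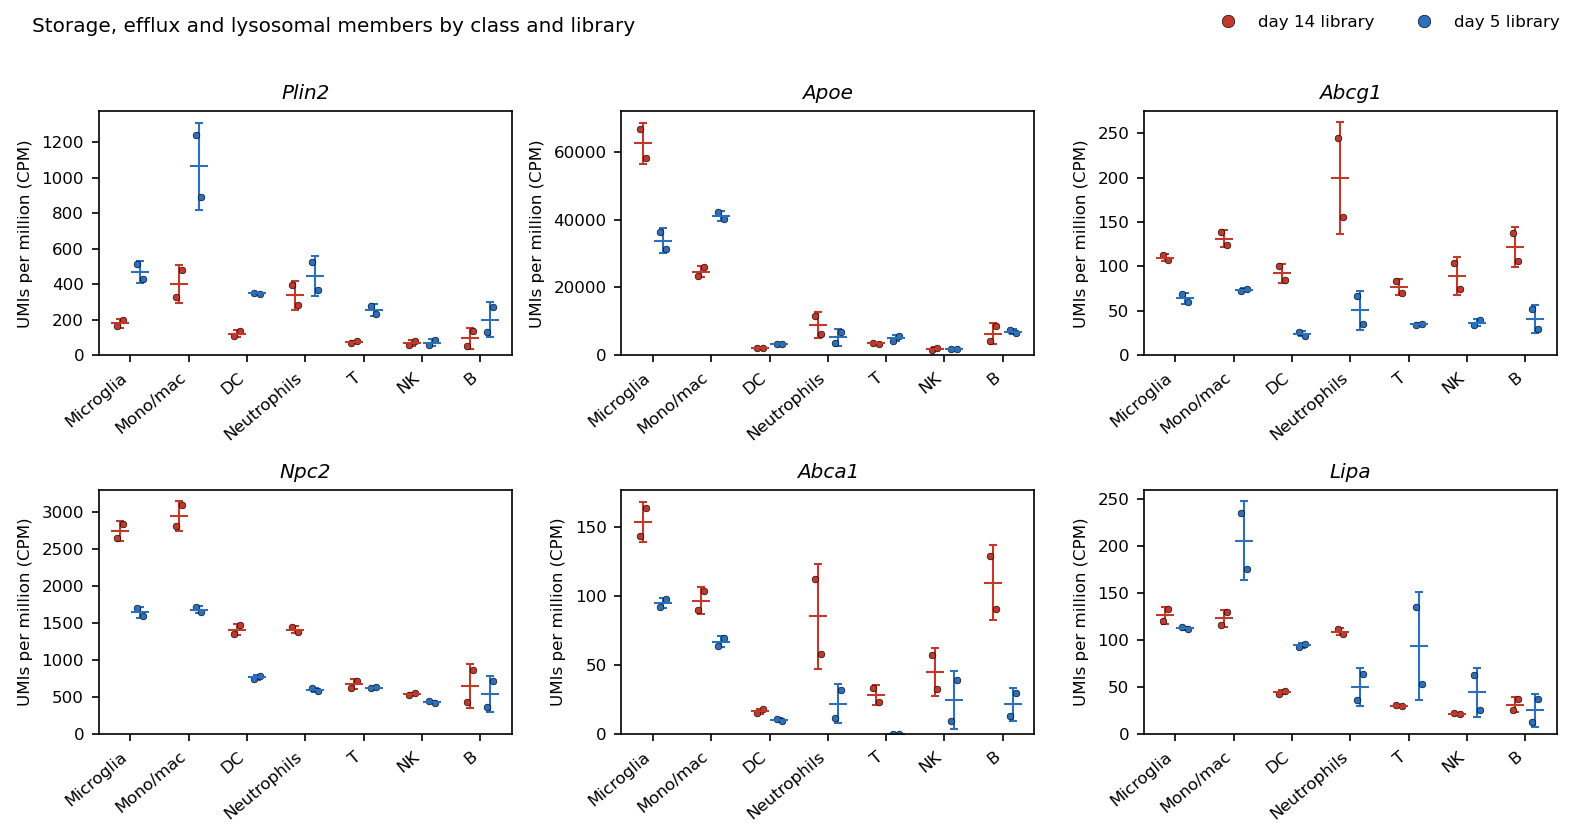
CPM of Plin2, Apoe, Abcg1, Npc2, Abca1 and Lipa in 7 classes, with day 14 left of day 5; points are libraries, bars the mean with SD (n = 2 libraries per day). Plin2 is lower on day 14 in microglia, in monocytes or macrophages, in dendritic cells and in T cells, and Abcg1 is higher on day 14 in all 7 classes.

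Monocytes or macrophages shared the fall of Plin2 and the higher Npc2 and Abcg1, but Apoe and Lipa fell. Of 27 genes tested, 8 passed, 4 upward and 4 downward, beside 8.45% of all genes (5.66% upward, 2.79% downward). Their median was −0.42, against −0.02 over all genes. Plin2 had 326 and 478 CPM on day 14, against 1238 and 889 CPM on day 5 (−1.39, SE 0.20, adjusted p = 0.0012). Npc2 had 2805 and 3091 CPM on day 14, against 1717 and 1646 CPM on day 5 (0.82, SE 0.11, adjusted p = 0.000969). Abcg1 had 138 and 124 CPM on day 14, against 72.7 and 75.1 CPM on day 5 (0.83, SE 0.14, adjusted p = 0.00358). For these 3 genes the days did not overlap and the calls held without any 1 library.

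Apoe had 23465 and 25904 CPM in day 14 monocytes or macrophages, against 42223 and 40104 CPM in those of day 5 (−0.73, SE 0.12, adjusted p = 0.00266), and without day 5 replicate 1 its adjusted p was 0.0542. Lipa had 117 and 130.0 CPM on day 14, against 236 and 176 CPM on day 5 (−0.73, SE 0.16, adjusted p = 0.017), and without day 5 replicate 1 it was −0.49 with adjusted p = 0.191. Cells of this class that also reached the C1q limit made up 7.79% and 11.4% of it on day 14, against 23.0% and 23.1% on day 5. Among those C1q-high cells alone the Apoe difference was −0.17 (adjusted p = 0.512) and among the rest −0.47 (adjusted p = 0.104). Abcg1 was 0.22 (adjusted p = 0.807) in the C1q-high cells and 0.97 (adjusted p = 0.00312) in the rest. The Plin2 difference was −1.29 (adjusted p = 2.75e-05) in the C1q-high cells and −1.33 (adjusted p = 0.00307) in the rest. The activation markers Cst7, Gpnmb, Itgax and Spp1 summed in this class to 5589 and 11115 UMIs per 1000000 on day 14, against 3149.9 and 2677 on day 5. Spp1 made up most of that sum, with 5125 and 10738.5 CPM on day 14, against 2248 and 2072 CPM on day 5. The difference of the sum by day is thus mostly that of Spp1, and the part of these markers in the results was not tested. The Plin2 value within each kind of cell was close to that of the whole class, and the Apoe value was smaller within each.

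The remaining calls in this class depended on single libraries. Abca1 had 89.5 and 103 CPM on day 14, against 64.0 and 69.8 CPM on day 5 (0.55, SE 0.15, adjusted p = 0.0485), and was lost without day 5 replicate 1 (0.50, adjusted p = 0.253), day 5 replicate 2 (0.61, adjusted p = 0.139) or day 14 replicate 2 (0.43, adjusted p = 0.236). Scd2, a desaturase close in sequence to Scd1, had 29.6 and 24.4 CPM on day 14, against 13.1 and 11.2 CPM on day 5 (1.11, SE 0.25, adjusted p = 0.0202), and was lost without day 5 replicate 2 (1.01, adjusted p = 0.0871). How the counting treated reads that match both genes was not examined. Cyp51, the lanosterol demethylase, had 7 and 15 UMIs on day 14, against 32 and 28 UMIs on day 5 (−1.40, SE 0.34, adjusted p = 0.03), and was lost without any 1 of the 4 libraries (adjusted p from 0.0589 to 0.14). It was the single synthesis enzyme to pass of 10 tested, although 10 of 10 were negative with a median of −0.69. The synthesis sum was 112 and 108 CPM on day 14, against 148 and 211 CPM on day 5, so the days did not overlap. Without day 5 replicate 2, 5 genes passed in place of 8. Of 22 pathway genes, Nceh1 was lower by −0.94 (adjusted p = 0.0196, but 0.182 at a value of −0.57 without day 5 replicate 1) and Lpcat3 by −0.75 (adjusted p = 0.0427), lost without any 1 library.

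The difference between the 2 phagocyte classes was tested directly, as the day effect in microglia minus that in monocytes or macrophages. Of 30 genes, 2 passed, both upward, beside 2.16% of all genes (0.89% upward, 1.27% downward). Apoe differed by 1.60 (SE 0.16, adjusted p = 2.27e-07), being higher on day 14 in microglia and lower in monocytes or macrophages, and this held without any 1 library. Lipa differed by 0.87 (SE 0.20, adjusted p = 0.0134), which was lost without day 5 replicate 1 (0.67, adjusted p = 0.332) or day 14 replicate 1 (0.82, adjusted p = 0.0714). The day effects of Plin2 were −1.38 in microglia and −1.39 in monocytes or macrophages, and their difference had an SE of 0.15 with edgeR. That SE was derived from the test statistic, which is unstable for a difference near 0. With DESeq2's test the difference was 0.00058 (SE 0.27), and with stricter gates 0.18 (SE 0.21). Outside the set, Apoc1 differed by 1.90 (adjusted p = 4.41e-07) and Lpl by 2.3 (adjusted p = 1.1e-06), again higher in microglia. Nceh1 differed by 1.48 (adjusted p = 0.00247, but 0.107 at a value of 1.11 without day 5 replicate 1) and G0s2 by −3.07 (adjusted p = 0.000458, but 0.486 at a value of −1.48 without day 14 replicate 1).

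Dendritic cells had 12 calls, most of them downward: 4 synthesis genes, 2 storage genes, 2 efflux genes, the regulator Insig1 and the lysosomal Lipa fell, while Abcg1 and Npc2 rose. Of 26 genes, 12 passed, 2 upward and 10 downward, beside 16.9% of all genes (9.23% upward, 7.65% downward). Their median was −0.59, against −0.003 over all genes. Plin2 had 107 and 137 CPM on day 14, against 349.6 and 347 CPM on day 5 (−1.49, SE 0.14, adjusted p = 2.7e-06). Abcg1 had 100.1 and 85.0 CPM on day 14, against 26.1 and 22.1 CPM on day 5 (1.92, SE 0.20, adjusted p = 8.5e-06). Npc2 had 1356 and 1468 CPM on day 14, against 742 and 791 CPM on day 5 (0.89, SE 0.09, adjusted p = 3.69e-06). The direction of all 3 was that of microglia and of monocytes or macrophages, with no overlap of days. Lipa fell by 1.07 (adjusted p = 0.000412), with 43.1 and 46.2 CPM on day 14, against 93.0 and 96.4 CPM on day 5.

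Pltp had 21.0 and 18.5 CPM in day 14 dendritic cells, against 52.9 and 53.1 CPM in those of day 5 (−1.43, SE 0.22, adjusted p = 0.000307). Soat1 had 31.0 and 41.3 CPM on day 14, against 67.0 and 69.5 CPM on day 5 (−0.87, SE 0.19, adjusted p = 0.00583). Apoe had 2145 and 2149.6 CPM on day 14, against 3206 and 3367 CPM on day 5 (−0.61, SE 0.06, adjusted p = 9.99e-06). All 3 were lower in each day 14 library. Apoe had 2.3 and 2.84 UMIs per C1q UMI in day 14 dendritic cells, against 1.47 and 1.51 in those of day 5, and summed C1q was 931 and 756 CPM on day 14, against 2183 and 2230 CPM on day 5. The part of free RNA in the Apoe difference was not tested.

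Sterol synthesis in dendritic cells gave 4 calls, all downward, of 12 tested, with 9 values negative and 3 positive. By DESeq2 none of those 4 passed (adjusted p from 0.205 to 0.423), nor did Insig1 (adjusted p = 0.16). Msmo1 had 15 and 13.5 CPM on day 14, against 30.3 and 32.7 CPM on day 5 (−1.14, SE 0.27, adjusted p = 0.00926), and was lost without day 14 replicate 2 (−1.05, adjusted p = 0.0624). Cyp51 had 18.0 and 14.2 CPM on day 14, against 28.2 and 32.7 CPM on day 5 (−0.94, SE 0.28, adjusted p = 0.0302), and was lost without day 5 replicate 2 (−0.83, adjusted p = 0.145) or day 14 replicate 2 (−0.74, adjusted p = 0.2). Both enzymes remove methyl groups from lanosterol or the sterols made from it, and each has a CCAAT in the windows printed above. So have 21 of the 27 genes with a window, among them Npc2, which rose in these cells. Insig1 had 10.0 and 8.62 CPM on day 14, against 24.7 and 24.5 CPM on day 5 (−1.41, SE 0.32, adjusted p = 0.00653), and was lost without day 14 replicate 2 (−1.28, adjusted p = 0.0528). Fdps, which makes farnesyl diphosphate, had 33.0 and 39.4 CPM on day 14, against 59.9 and 54.8 CPM on day 5 (−0.63, SE 0.19, adjusted p = 0.0364). Dhcr7, a late reductase of the path, had 2 and 6 UMIs on day 14, against 17 and 11 UMIs on day 5 (−1.76, SE 0.53, adjusted p = 0.0331). Those 2 were lost without any 1 library (adjusted p from 0.0542 to 0.371). Without day 14 replicate 2, 7 genes passed in place of 12. The synthesis sum was 195 and 173 CPM on day 14, against 273 and 259.9 CPM on day 5.

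The make-up of the dendritic class also moved with time. Epcam UMIs were found in 6.19% and 5.76% of its cells on day 14, against 50% and 33.6% on day 5, and Ccr7 UMIs in 39.2% and 41.0% on day 14, against 13.3% and 15.5% on day 5. Among cells with neither, 7 of the calls of this class held and 4 did not, beside 371 of 5731 genes that passed there. Those that held included Plin2 (−1.18, adjusted p = 0.00188), Abcg1 (1.68, adjusted p = 0.0021), Npc2 (0.73, adjusted p = 0.00155), Msmo1 (−1.52, adjusted p = 0.0161), Cyp51 (−1.46, adjusted p = 0.0253) and Insig1 (−1.70, adjusted p = 0.0324). In the same cells Soat1 (−0.39, adjusted p = 0.47), Pltp (−1.10, adjusted p = 0.0637), Lipa (−0.84, adjusted p = 0.0556) and Fdps (−0.92, adjusted p = 0.0977) did not pass. Of 18 pathway genes, Hilpda, a droplet gene, was lower by −2.38 (adjusted p = 8.83e-06), Nceh1 by −1.64 (−2.5 without day 14 replicate 2), Lpcat3 by −0.94 and Pmvk by −0.52, and Apoc1 (0.97) and Mylip (0.91) were higher. The last 4 were lost when 1 library or another was left out.

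**Figure D4:**
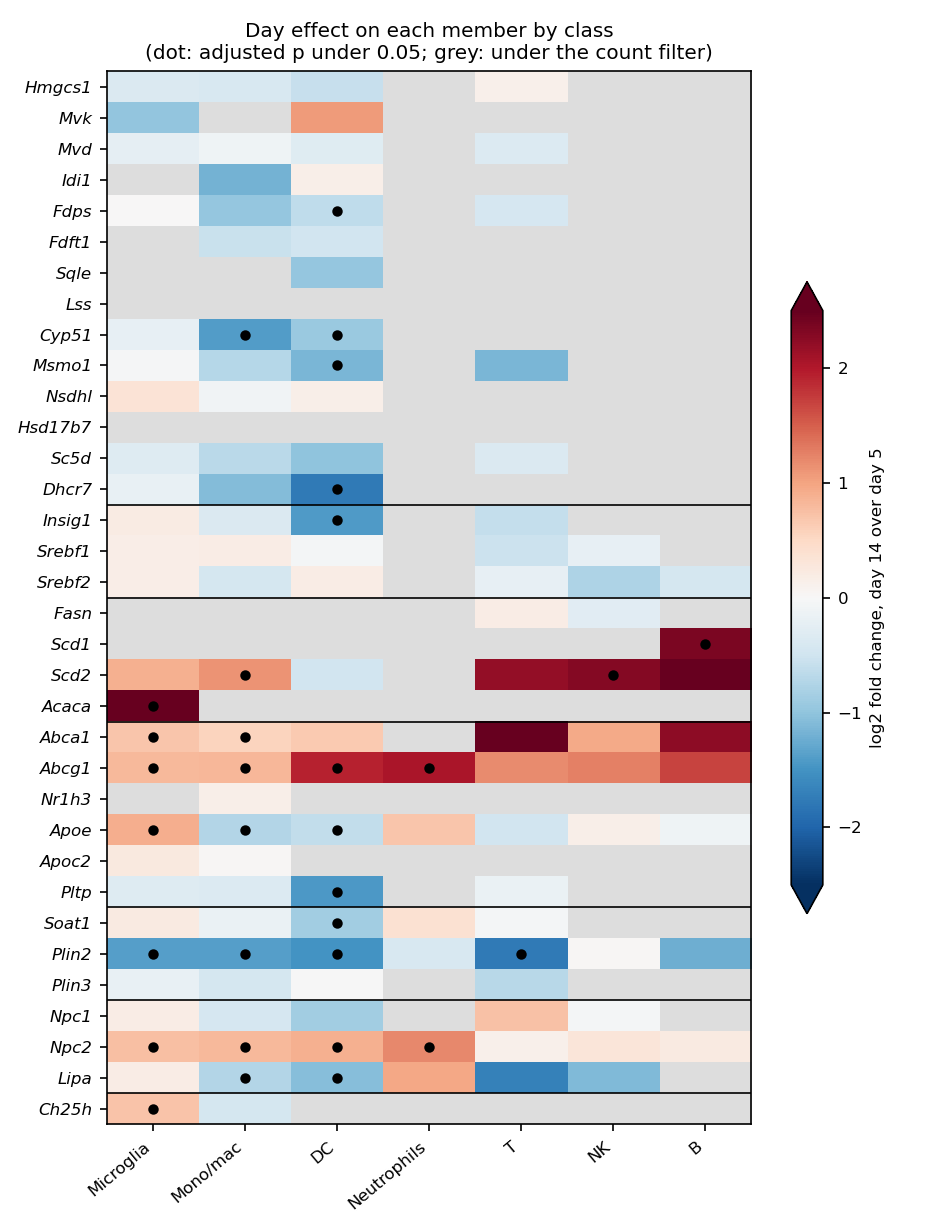
Log2 fold change of day 14 over day 5 for the 34 genes (rows, by role) in 7 classes (columns); a dot marks an adjusted p under 0.05, grey a gene with too few counts, and colours saturate at ±2.5. Dots gather in the rows of Plin2, Npc2 and Abcg1, and the synthesis rows are mostly negative in monocytes or macrophages and in dendritic cells.

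In neutrophils 2 of 6 genes passed, both upward, beside 18.9% of all genes (12.3% upward, 6.56% downward). Npc2 had 1445 and 1378 CPM on day 14, against 619.8 and 579 CPM on day 5 (1.2, SE 0.22, adjusted p = 0.00312). Abcg1 had 24 and 16 UMIs on day 14, against 11 and 13 UMIs on day 5 from more cells (2.05, SE 0.45, adjusted p = 0.00781). These are the 2 genes that also rose in microglia, in monocytes or macrophages and in dendritic cells. Summed C1q in neutrophils was 2167 and 1679 CPM on day 14, against 1865 and 2017 CPM on day 5. In phagocytes it was 13821 and 9346 CPM on day 14, against 18214 and 21037 CPM on day 5. The part of free RNA in the neutrophil values was not tested. Of 8 pathway genes in neutrophils, Lbr, a sterol reductase and nuclear membrane protein, was lower by −2.04 (adjusted p = 0.00464) and Dgat1 by −1.58 (adjusted p = 0.0152, but 0.0803 at a value of −1.41 without day 14 replicate 1).

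In T cells 1 of 20 genes passed, beside 0.855% of all genes (0.505% upward, 0.35% downward). Plin2 had 69.7 and 80.0 CPM on day 14, against 277 and 232 CPM on day 5 (−1.77, SE 0.24, adjusted p = 0.000616). That rests on 41 and 26 UMIs on day 5, and when T cells were taken from clusters the value was −0.85 with adjusted p = 0.46. Plin2 averaged 0.0750 and 0.112 UMIs per C1q UMI in day 14 T cells, against 0.328 and 0.183 in day 5 T cells, and in phagocytes the same ratio was 0.0191 and 0.0459 on day 14, against 0.0453 and 0.0275 on day 5. In monocytes or macrophages alone it was 0.105 and 0.109 on day 14, against 0.194 and 0.144 on day 5. The T cell ratio was higher than that of this class in both day 5 libraries. On day 14 it was lower in replicate 1 and slightly higher in replicate 2. The part of free RNA in the T cell values was not tested. Abca1 had 68 and 32 UMIs in day 14 T cells, against 0 UMIs in both day 5 libraries, and did not pass (adjusted p = 0.127).

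Outside the set, none of 17 pathway genes tested in T cells, 11 in NK cells and 2 in B cells passed by edgeR or DESeq2. An unadjusted p under 0.05 by edgeR was found for 4 of them in T cells (Pmvk, Apoc1, Lpl and Dgat1) and 0 in NK and B cells.

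In NK cells 1 of 11 genes passed, beside 5.64% of all genes (3.87% upward, 1.78% downward). It was Scd2, with 42 and 56 UMIs on day 14, against 5 and 0 UMIs on day 5 (2.29, SE 0.58, adjusted p = 0.0188). Without day 5 replicate 2 the value was 1.5 with adjusted p = 0.151, and without day 5 replicate 1, which leaves a day 5 count of 0, the fitted value was 8.19 and is no measure of size.

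In B cells 1 of 8 genes passed, beside 1.1% of all genes (0.817% upward, 0.286% downward). Scd1 had 378 and 350.3 CPM on day 14, against 65.6 and 74.9 CPM on day 5 (2.36, SE 0.32, adjusted p = 0.00305), on 132 and 66 UMIs on day 14, against 5 and 10 UMIs on day 5. The call held without any 1 library. Over the 4 libraries Scd1 averaged 217 CPM in B cells, 7.04 CPM in dendritic cells and at most 2.46 CPM in any other class. Scd1 UMIs were found in 47.5% and 52.6% of day 14 B cells, against 9.76% and 13.9% of day 5 B cells. Median depth there was 1924 and 2063.5 UMIs per cell on day 14, against 1338 and 1238.5 UMIs on day 5. With every cell thinned to 1000 UMIs the shares were 31.3% and 31.6% of day 14 B cells, against 9.38% and 6% of day 5 B cells. The thinning left out 9 and 22 day 5 B cells as too shallow, and in T cells thinned alike the share was 0.253% and 0 on day 14, against 0 in both libraries of day 5.

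Within microglia, cells high in the activation markers Cst7, Gpnmb, Itgax and Spp1 (together at least 100 of 10000 UMIs) were set against the other microglia, with the library as a block. This split was chosen after the data were seen, and 171 of 2497 microglia lay within 20% of its limit. Marker-high cells numbered 57 and 48 on day 14, against 183 and 188 on day 5, and marker-low cells 139 and 57 on day 14, against 615 and 1210 on day 5. The droplet coat genes Plin2 and Plin3, the efflux gene Apoe, the lysosomal genes Npc2 and Lipa, and Ch25h were higher in the marker-high cells, and the sterol sensor Insig1 was lower. The third storage gene, Soat1, did not pass (0.26, adjusted p = 0.449). Of 18 genes, 7 passed, 6 upward and 1 downward, beside 20.2% of all genes (9.87% upward, 10.3% downward).

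Plin2 had 248.7 and 209.9 CPM in marker-high cells of day 14 and 1027 and 1039 CPM in those of day 5, against 155 and 203 CPM in marker-low cells of day 14 and 435 and 373 CPM in those of day 5 (1.15, SE 0.17, adjusted p = 0.000268). It was higher in the marker-high cells of all 4 libraries. The gap was wider in the day 5 libraries, and whether the days differ in it was not tested. Ch25h had 143 and 188 CPM in marker-high cells of day 14 and 87.5 and 102 CPM in those of day 5, against 75.6 and 58.7 CPM in marker-low cells of day 14 and 64.2 and 50.3 CPM in those of day 5 (1.02, SE 0.18, adjusted p = 0.00138). Here the wider gap was on day 14. Insig1 had 1 and 0 UMIs in marker-high cells of day 14 and 2 and 2 UMIs in those of day 5, against 16 and 3 UMIs in marker-low cells of day 14 and 36 and 78 UMIs in those of day 5 (−2.31, SE 0.53, adjusted p = 0.00665). With so few UMIs it passed the count filter in just 1 of the 4 fits that leave out a library, that without day 14 replicate 2 (−2.19, adjusted p = 0.00608).

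Npc2 had 3643 and 3413 CPM in marker-high cells of day 14 and 2006 and 1925 CPM in those of day 5, against 2652 and 2664 CPM in marker-low cells of day 14 and 1747 and 1682 CPM in those of day 5 (0.41, SE 0.09, adjusted p = 0.00472). Lipa had 149 and 155 CPM in marker-high cells of day 14 and 183 and 163 CPM in those of day 5, against 126 and 129 CPM in marker-low cells of day 14 and 106 and 114 CPM in those of day 5 (0.63, SE 0.14, adjusted p = 0.00555). Both were higher in the marker-high cells of all 4 libraries, and Lipa was lost without day 5 replicate 1 (0.47, adjusted p = 0.119) or day 5 replicate 2 (0.58, adjusted p = 0.104). Apoe had 90948 and 55895 CPM in marker-high cells of day 14 and 52964 and 46726 CPM in those of day 5, against 67282 and 64687 CPM in marker-low cells of day 14 and 35212 and 31671 CPM in those of day 5 (0.45, SE 0.10, adjusted p = 0.00458). Plin3 had 49.7 and 27.6 CPM in marker-high cells of day 14 and 51.7 and 59.5 CPM in those of day 5, against 27.3 and 31.3 CPM in marker-low cells of day 14 and 32.1 and 32.9 CPM in those of day 5 (0.81, SE 0.22, adjusted p = 0.0181). Apoe and Plin3 were lower in the marker-high cells of day 14 replicate 2 and higher in those of the other 3 libraries. Apoe was lost without day 5 replicate 2 (0.35, adjusted p = 0.0716), and Plin3 without that library (0.67, adjusted p = 0.266) or day 5 replicate 1 (adjusted p = 0.108). Leaving out day 5 replicate 1 gave a count of 4, and leaving out day 5 replicate 2 a count of 3. Abca1 was −0.38 with adjusted p = 0.0852.

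Of 18 pathway genes in that comparison, Lpl (0.92), Nceh1 (0.90) and Apoc1 (0.82) were higher in marker-high cells, and G0s2 (−1.27) and Mylip (−0.91) lower. The calls of Nceh1 and Apoc1 were lost when 1 library or another was left out. Marker-low cells made up 70.9% and 54.3% of microglia on day 14, against 77.1% and 86.6% on day 5. Among marker-low microglia alone, the day effect was −1.24 for Plin2 (adjusted p = 0.000593), 0.95 for Apoe (adjusted p = 4.17e-06), 0.61 for Npc2 (adjusted p = 0.00439), 0.66 for Abca1 (adjusted p = 0.037) and 0.81 for Abcg1 (adjusted p = 0.0375). These 5 were thus of like size with the marker-high cells left out.

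**Figure D5:**
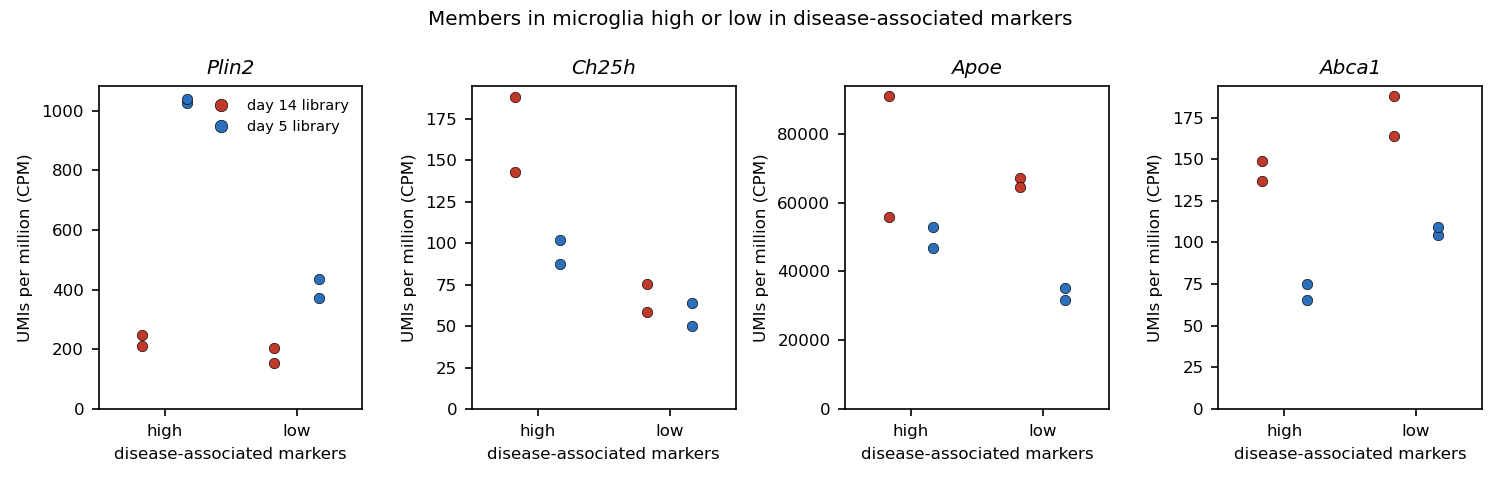
CPM of Plin2, Ch25h, Apoe and Abca1 in marker-high and marker-low microglia, with day 14 left of day 5. Points are libraries (n = 2 libraries per day). Plin2 reaches 1027 and 1039 CPM in the marker-high cells of day 5, above every other group, and Ch25h is highest in the marker-high cells of day 14.

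Read across all 7 classes, the transporter Abcg1 was higher in both day 14 libraries than in both day 5 libraries in 7 of 7 classes and Abca1 in 6. Npc2 was higher in 5 classes and overlapped in the others. On unscaled CPM Plin2 was lower in 4 classes and Msmo1 and Cyp51 in 5. Among 5156 genes with at least 10 UMIs in each class, a set that holds Plin2 and Msmo1 but not Cyp51, 10.8% were lower in 4 classes and 4.67% in 5. Of the same genes 50 (0.970%) were higher in all 7 classes, 73 (1.42%) in 6 and 106 (2.06%) in 5, while 11 (0.213%) were lower in all 7. Abcg1 is thus 1 of 50 genes that stood higher in every class, in libraries whose day and file layout cannot be told apart. The synthesis sum was lower in both day 14 libraries in 5 of the 7 classes (microglia, monocytes or macrophages, dendritic cells, NK cells and B cells) and overlapped in T cells and neutrophils. The 3 lysosomal genes, mostly Npc2, summed to 2912 ± 138 CPM in day 14 microglia and 1799 ± 80.8 CPM in those of day 5 (SD, n = 2 libraries each). Plasmacytoid dendritic cells, a small class of 20 to 50 cells per library, had the highest synthesis sum, with 448 and 234 CPM on day 14, against 694 and 1287 CPM on day 5. That sum rests on as few as 20 UMIs in a library and was not tested.

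Some genes of the set overlap others on the same strand. Apoc2 overlaps Gm44805 and Fdps overlaps Gm43738, and both partners were counted, so the counts of Apoc2 and Fdps may be split. Nr1h3 overlaps Gm13783, and Scd2 and Srebf1 each have a microRNA gene inside, but these partners are not among the counted genes.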

How the data were processed

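The authors deposited matrices of UMI counts for 4 libraries, filtered to cells. The tools were Cell Ranger 3.0.1 and Seurat 2.3.4 on build GRCm38 (mm10), per the submitters' processing notes; the annotation release is not given in the sources used here. From the deposited counts, cells with at least 200 genes and at most 10% mitochondrial UMIs were kept and gated into classes from marker UMIs per 10000 (70 of 71 listed markers were found). The gate limits and the split of microglia were set after seeing the data, and the members and lists were chosen with earlier results of these data known. Cells with markers of more than 1 class, which include doublets, were left out, and no doublet caller was run. Counts were summed per class and library, and 7 classes with at least 20 cells in each of the 4 libraries were tested by day. Border-associated macrophages (under 20 cells in a library), plasmacytoid dendritic cells and other C1q-positive phagocytes were summed but not tested by day.

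Sums were tested with edgeR 4.0.16 in R 4.3.3 (TMM scaling, filterByExpr, quasi-likelihood F test, two-sided, Benjamini-Hochberg over all genes of the comparison, threshold 0.05), with day as the term within a class. The phagocyte and lymphocyte comparison, the difference between phagocyte classes and the split of microglia had the library as a block. The script was tested on simulated counts. DESeq2 1.42.0 and classes from Leiden clusters (scanpy 1.11.5 in Python 3.11.15, 21 clusters) were among the alternatives. All 34 genes could be named; those past the threshold have their values given. Same-numbered libraries of the 2 days did not deviate together (correlations −0.18 to 0.0172 over classes), so the main test did not pair them by number. With 2 libraries per day these correlations cannot show that libraries are unpaired. The −0.18 was in monocytes or macrophages. There a block on crossed numbers, chosen after seeing the data, let 1323 of 8533 genes pass, against 721 without a block. Counting error and 2 libraries per day limit the precision, and UMIs of 1 cell are not replicates. Cells lying within 20% of a gate limit numbered 313 for microglia, 281 for monocytes or macrophages and 490 for C1q.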

Additional observations from a re-analysis of the deposited data

Results flagged for a closer look

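6 genes had a day effect that differed between microglia and monocytes or macrophages by a test of the difference itself (edgeR's quasi-likelihood test with Benjamini-Hochberg adjustment over all genes). Of the set these were Apoe (1.60) and Lipa (0.87). Of the other pathway genes they were Lpl (2.3), Apoc1 (1.90), Nceh1 (1.48) and G0s2 (−3.07), given as the log2 day effect in microglia minus that in monocytes or macrophages. Over all 9442 genes tested for this difference, 2.16% passed (0.89% upward, 1.27% downward). Apoe, Apoc1 and Lpl held without any 1 library. G0s2 was −0.02 (adjusted p = 0.995) when cells were classed by clusters, and Lipa 0.62 (adjusted p = 0.103). The reason for these differences was not tested.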

How the results depend on the processing

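Over 60 calls, 591 recomputed values kept their direction in every case: 502 stayed past the threshold, 89 did not, and none turned. With DESeq2's test the count of genes called was 3 in microglia (7 with edgeR), 5 in monocytes or macrophages (8), 6 in dendritic cells (12), 0 in NK cells (1), 0 in B cells (1) and 1 for the difference between phagocyte classes (2); in NK and B cells DESeq2 gave no adjusted p for the gene edgeR called. Stricter gates gave 5 in monocytes or macrophages, 0 in NK cells and 1 for the difference. Without a count filter T cells gave 4, NK cells 2 and B cells 3. Leiden clusters gave 0 in T cells, 2 in NK cells and 1 for the difference. With a replicate block T cells gave 2 and B cells 2. Chosen after seeing the data, C1q-high monocytes or macrophages gave 4, the C1q-low ones 5, dendritic cells with no Epcam or Ccr7 UMI 7, and NK cells with no C1q UMI 0; the same was not run for T and B cells, which had too few cells.

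Leaving out 1 library gave 4 to 5 genes in microglia, 5 to 8 in monocytes or macrophages, 7 to 12 in dendritic cells, 2 to 3 in neutrophils, 1 to 2 in T cells, 0 to 2 in NK cells, 1 to 4 in B cells, 17 to 20 between lineages, 1 to 2 for the difference and 3 to 7 for the split of microglia. A lone library is then assumed to vary like the others. Log2 ratios of the efflux and storage sum, day 14 over day 5, were in dendritic cells −0.57 with stricter gates, −0.34 with clusters and −0.68 on raw totals (−0.63 as reported). They were −0.45 with clusters in neutrophils (0.70), 0.40 with stricter gates and 0.13 with clusters in T cells (−0.50), and 0.52 with stricter gates in NK cells (0.18). The synthesis ratio with clusters was −0.70 in dendritic cells (−0.53) and −0.11 in NK cells (−0.57). Apoe sets this ratio in microglia, where it was 0.87 with Apoe and −0.40 without it. Without 1 library the efflux and storage ratio was 0.76 to 0.98 in microglia, −0.81 to −0.66 in monocytes or macrophages, −0.66 to −0.60 in dendritic cells, 0.21 to 1.15 in neutrophils, −0.65 to −0.34 in T cells, −0.01 to 0.35 in NK cells and −0.67 to 0.30 in B cells. The synthesis ratio was −0.36 to −0.10, −0.94 to −0.43, −0.62 to −0.45, −1.24 to −0.17, −0.76 to −0.10, −0.69 to −0.46 and −1.31 to −0.57 in the same order of classes. The cause of these shifts was not tested. T, NK and B cells of day 5 were few (110, 218 and 113 cells), which limits what could be detected there.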
